A study of Danio rerio with 12 samples.

Results

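The transcriptomes of whole zebrafish larvae exposed to bisphenol A (BPA) at 1 mg/L were compared with those of larvae exposed at 0.1 mg/L. The libraries were chosen by their titles, and 6 of the series' 12 libraries belong to this comparison, 3 at each concentration. All larvae were wild type and were sampled at 5 days post fertilization, at the eleutheroembryo stage, after 3 days of immersion that began at day 2. At both concentrations the water also held 0.2% DMSO, the solvent of the BPA stocks, and working solutions were renewed every day. Each library was made from poly-A RNA of a pool of 10 larvae. The labels do not say whether pools came from separate clutches or dishes, so that p-values measure the spread between these pools. The other 6 libraries were a solvent control without BPA and BPA at 4 mg/L, with 3 libraries each. They enter the estimate of spread but not the contrast, and their levels are set beside those of some of the genes named here.

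BPA is a plastics monomer that binds estrogen receptors weakly. In fish, liganded estrogen receptors act on estrogen response elements in the promoters of a small set of strongly inducible genes. Among them are the brain aromatase gene, which is expressed in radial glia, and the vitellogenin genes of the liver. Liver and gut also handle BPA itself, since cytochrome P450 enzymes, sulfotransferases and glucuronosyltransferases convert such phenols to excretable products. Many conjugates leave the liver in bile.

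The question this comparison addresses is which transcripts differ between a low and an intermediate concentration. Library totals were 33.75, 30.31 and 22.17 M counts in 1 mg/L replicates 1, 2 and 3, against 29.34, 34.22 and 28.22 M in 0.1 mg/L replicates 1, 2 and 3. Replicates of a group differed by far more than counting noise, with a chi-square per degree of freedom of 38.4 to 75 at 1 mg/L and 30.4 to 61 at 0.1 mg/L. Same-numbered libraries deviated together from their group means (r = 0.51, 0.23 and 0.34 over the 22399 tested genes for numbers 1, 2 and 3, against -0.45 to 0.04 for libraries with other numbers). Values from a fit with the replicate number as a block are therefore given beside those without it. Deviations within a group sum to 0, so the low values for other numbers follow in part from the same-numbered ones. With control libraries numbered 1, 2 and 3, r was 0.25, -0.24 and 0.4 for 1 mg/L. For 0.1 mg/L it was 0.21, 0 and 0.45, so number 2 did not pair with its control. The controls are not in the blocked fit. Markers of many larval tissues were present, and 8 of 8 hepatocyte, 6 of 6 fast muscle and 5 of 5 keratinocyte markers averaged over 1 CPM in the 6 libraries (counts per M counts of a library, where M is mega, scaled by TMM). Of 6 pituitary markers 2 did so, and of 5 oocyte markers 0.

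Of the 22399 genes tested, 2 rose at 1 mg/L relative to 0.1 mg/L and 0 fell at a Benjamini-Hochberg adjusted p under 0.05 from the quasi-likelihood test of edgeR, a two-sided count model (0.00893% and 0% of tested genes). Both genes that rose, cyp19a1b and f13a1a.1, are known targets of estrogen in zebrafish larvae. With the replicate block, 2 genes rose and 0 fell, and they were the same 2 genes. At an unadjusted p under 0.05 there were 436 genes without the block (1.95%), 236 of them higher (1.05%) and 200 lower (0.893%). With the block there were 1481 (6.61%), 697 of them higher (3.11%) and 784 lower (3.5%). Over all tested genes the median log2 fold change was 0.01 and 51.8% of values lay above 0. In the fit without the block the edgeR adjusted p was 0.9998 or more for every tested gene other than those 2, and with it the next smallest was 0.237, so all further genes below are given as values that did not pass in edgeR.

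**Figure D1:**
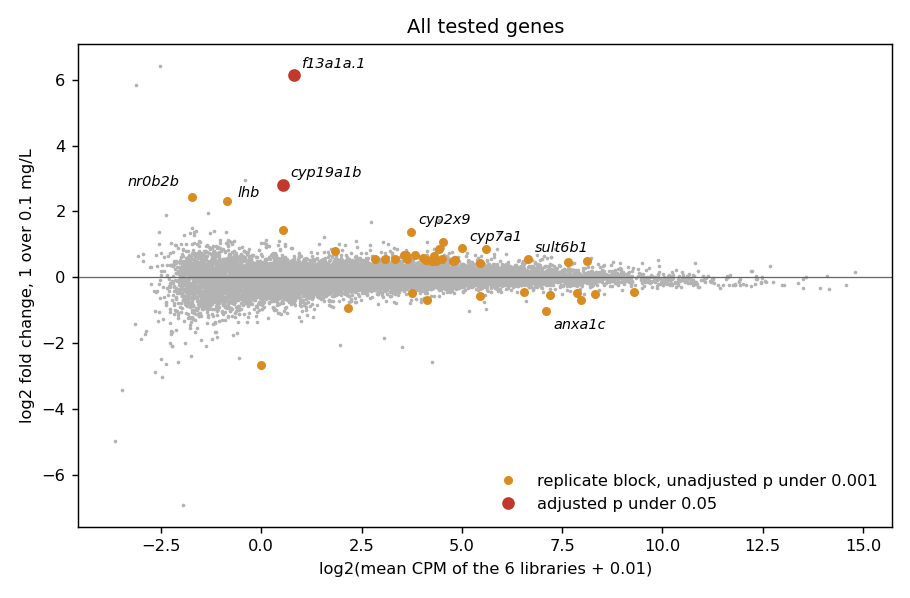
Log2 fold change of 1 over 0.1 mg/L BPA (vertical axis) against log2 of the mean CPM of the 6 libraries plus 0.01 (horizontal axis), 1 point per tested gene. The 2 red points, cyp19a1b and f13a1a.1, have an edgeR adjusted p under 0.05; orange points have an unadjusted p under 0.001 in the fit with the replicate block, and lie on both sides of 0.

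The gene with the smallest p, cyp19a1b (ENSDARG00000098360), encodes the brain aromatase, which converts androgens to estrogens. It stood at 2.18, 2.92 and 2.5 CPM in the 1 mg/L libraries, against 0.368, 0.419 and 0.268 CPM in the 0.1 mg/L libraries. The lowest 1 mg/L library lay far above the highest 0.1 mg/L library. Groups without overlap, by any margin, were found for 5.41% of all tested genes, 3.06% with 1 mg/L higher and 2.35% with 1 mg/L lower. The underlying counts were 77, 94 and 50 at 1 mg/L, against 11, 14 and 7 at 0.1 mg/L. The rise was 7.04-fold, a log2 fold change of 2.81 (SE 0.28; edgeR adjusted p = 0.00634), and with the replicate block it was 2.83 (SE 0.20; edgeR adjusted p = 0.00439). Within same-numbered pairs the differences in log2 CPM, with a prior count of 2, were 2.37, 2.62 and 2.94. Group means were 0.268 CPM in the solvent control and 19.9 CPM at 4 mg/L, so that 0.1 mg/L stood close to the control and 1 mg/L between 0.1 and 4 mg/L. The files give this gene the type unprocessed pseudogene, although its symbol is that of the functional aromatase. Leaving out 0.1 mg/L replicate 1, 2 or 3 gave edgeR adjusted p-values of 0.0784, 0.0615 and 0.0839.

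The largest fold change among genes past the threshold belonged to f13a1a.1 (ENSDARG00000045453), which encodes a chain of coagulation factor XIII, the transglutaminase that crosslinks fibrin. Its counts were 58, 141 and 88 in the 1 mg/L libraries, against 2, 2 and 0 in the 0.1 mg/L libraries. These correspond to 1.64, 4.38 and 4.40 CPM at 1 mg/L, against 0.0669, 0.0598 and 0 CPM at 0.1 mg/L. The groups did not overlap, and the 0.1 mg/L libraries were at the level of the controls, which averaged 0.048 CPM. The ratio of summed counts per library size was 73.3, with an exact 95% interval of 28.3 to 271 that covers counting error only. The log2 fold change was 6.14 (SE 0.80; edgeR adjusted p = 0.0468), and with the block 6.19 (SE 0.63; edgeR adjusted p = 0.0406). At 4 mg/L the mean was 4.27 CPM, close to the 3.47 CPM at 1 mg/L, a pair of levels for which the difference was not tested here. The adjusted p of f13a1a.1 in edgeR was 0.197 without 1 mg/L replicate 2 and 0.186 without 1 mg/L replicate 3, and 0.448, 0.584 and 0.492 without 0.1 mg/L replicate 1, 2 or 3.

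Of the 20 genes named in the estrogen response list, 19 were in the files and 9 had enough counts to be tested. Of these, 2 rose and 0 fell, 6 had a log2 fold change above 0, and 5 were higher at 1 mg/L in all 3 same-numbered pairs (14.7% of all tested genes were). The list's median was 0.18, against 0.01 over all tested genes, and it ran from 0.09 without 1 mg/L replicate 2 to 0.30 without 0.1 mg/L replicate 3. The genes cyp19a1b, f13a1a.1 and lhb had enough counts for the test only through the 1 and 4 mg/L libraries. The counts of members given here therefore describe the list and are no test of it.

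The pituitary gene lhb (ENSDARG00000099363), for the beta subunit of luteinizing hormone, had 27, 31 and 20 counts at 1 mg/L, against 6, 9 and 1 counts at 0.1 mg/L. All 3 libraries at 1 mg/L were above all 3 at 0.1 mg/L, and the ratio of summed counts per library size was 4.98 (exact 95% interval 2.88 to 9.14, counting error only). Its log2 fold change was 2.33 (SE 0.53), with an edgeR adjusted p of 0.465 under the replicate block. In the controls lhb averaged 0.0116 CPM, and at 4 mg/L 1.09 CPM, against 0.909 CPM at 1 mg/L and 0.169 CPM at 0.1 mg/L.

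The yolk precursor gene vtg1, an estrogen target of the liver, was too low to be tested. It had 4, 3 and 4 counts at 1 mg/L, against 3, 4 and 2 counts at 0.1 mg/L, a ratio of 1.25 with an exact 95% interval of 0.471 to 3.41. No difference in vtg1 was detectable at this depth, and counts of the near-identical vitellogenin copies are uncertain. The related copy vtg7 had 0.737, 0.466 and 1.00 CPM at 1 mg/L, against 0.535, 0.419 and 0.651 CPM at 0.1 mg/L, and these ranges overlapped (log2 fold change 0.43, SE 0.68).

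The receptors themselves showed overlapping levels. For esr1, the gene of estrogen receptor alpha, counts were 7, 15 and 7 at 1 mg/L, against 10, 7 and 15 at 0.1 mg/L, and the log2 fold change was -0.12 (SE 0.47). The beta receptor genes esr2a and esr2b had log2 fold changes of -0.04 (SE 0.40) and 0.18 (SE 0.21). Values for greb1, an estrogen-regulated gene first known from mammals, and ncoa3, a nuclear receptor coactivator, were 0.06 (SE 0.21) and -0.06 (SE 0.12) on the same scale.

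**Figure D2:**
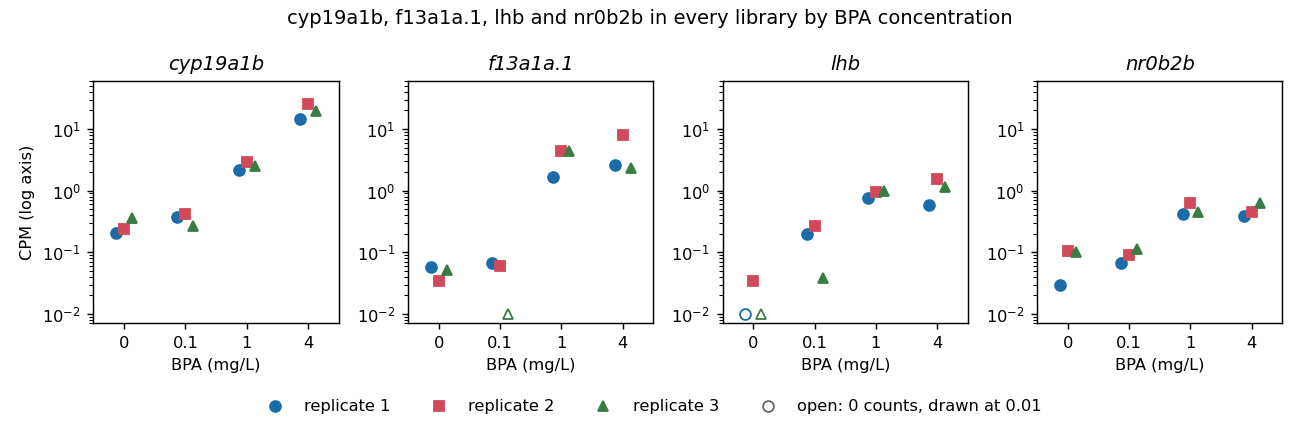
CPM (log axis) of cyp19a1b, f13a1a.1, lhb and nr0b2b in every library at 0, 0.1, 1 and 4 mg/L BPA; symbols mark replicate numbers, and open symbols are libraries with 0 counts, drawn at 0.01. In each panel the 3 libraries at 1 mg/L lie above the 3 libraries at 0.1 mg/L, and cyp19a1b is highest at 4 mg/L (19.9 CPM on average). Neither lhb nor nr0b2b passed the edgeR test. All of these genes had enough counts for the test only through the 1 and 4 mg/L libraries.

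Of the 58 gene lists examined, 9 are described, because a member rose or because the median lay at least 0.25 from 0 on the log2 scale. Estrogen response, steroid synthesis and radial glia hold a gene that rose. The other lists have the shifted median, which is therefore fixed by the choice and not read as a result. For those lists, the numbers of members above 0 or alike in every pair come from the same libraries, as do the summed levels. They are not independent of that choice, so they describe each list and are no test of it. The remaining 49 lists had medians from -0.16 (keratinocyte) to 0.22 (kidney). Values of some of them, such as phase II conjugation and keratinocyte, are also given below, outside that rule and not as a test.

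Besides cyp19a1b, 16 of the 17 tested genes of steroid synthesis and 28 of the 29 of radial glia and astroglia passed in neither direction. The steroid synthesis list had a median log2 fold change of -0.09, which was 0.12 without 1 mg/L replicate 1, and medians of 0.01, 0.01 and 0.09 in pairs 1, 2 and 3. Its member cyp17a1, the enzyme that leads to androgens and cortisol, was at 5.98, 4.13 and 10.0 CPM at 1 mg/L, against 10.0, 9.76 and 8.09 CPM at 0.1 mg/L. These ranges overlapped through 1 mg/L replicate 3. The radial glia list had 21 of 29 values above 0, with 8 genes higher and 1 lower in all 3 pairs. Its median was 0.11, and 0.04 without 1 mg/L replicate 2, and the defining glial genes gfap and fabp7a had log2 fold changes of -0.07 and -0.03. Of its other members, aqp1a.1, a water channel gene, was at 52.9, 51.3 and 49.5 CPM at 1 mg/L, against 47.8, 42.7 and 40.4 CPM at 0.1 mg/L, and mt2, a metallothionein gene, had a log2 fold change of -0.27 (SE 0.27). In such bulk samples, fewer cells of a type and less RNA per cell cannot be told apart.

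The list with the highest median was bile acid synthesis and transport, at 0.36 over its 21 tested genes, of which 0 passed the edgeR test in either direction. Of the 21, 15 had a log2 fold change above 0. In all 3 pairs, 11 were higher at 1 mg/L and 0 were lower. Over all tested genes these shares were 14.7% and 13.1%, but the list was picked by its median in the same libraries. The comparison is therefore no test of the list. The summed level of the list was 680, 816 and 749 CPM at 1 mg/L, against 483, 640 and 596 CPM at 0.1 mg/L, and the groups did not overlap. The list's median ranged from 0.24 without 1 mg/L replicate 2 to 0.51 without 0.1 mg/L replicate 2.

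Among the enzymes, cyp7a1 (ENSDARG00000069018), the rate-limiting enzyme of bile acid synthesis, was at 43.6, 53.7 and 27.5 CPM at 1 mg/L, against 17.6, 33.7 and 15.9 CPM at 0.1 mg/L. Each 1 mg/L library was above the 0.1 mg/L library of its number, while the groups overlapped across numbers. Its log2 fold change was 0.89 (SE 0.38) without the block and 0.92 (SE 0.15) with it, where the edgeR adjusted p was 0.416. The control and the 4 mg/L group averaged 14.9 and 17.2 CPM, so that the mean at 1 mg/L, 41.6 CPM, was the highest of the 4 groups. The 4 mg/L libraries, at 14.6, 27.9 and 9.04 CPM, overlapped those at 1 mg/L.

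For cyp8b1 (ENSDARG00000053068) too the mean at 1 mg/L was the highest of the 4 groups, while the libraries at 1 and 4 mg/L overlapped. It encodes the sterol 12-alpha-hydroxylase that sets the kind of bile acid made. The gene is in no list and was chosen after its values were seen. It was at 30.9, 33.6 and 18.6 CPM at 1 mg/L, against 14.0, 19.7 and 11.8 CPM at 0.1 mg/L, with 10.9 CPM in the control and 17.9 CPM at 4 mg/L. All 3 pairs were higher at 1 mg/L, with overlap across numbers (log2 fold change 0.87, SE 0.26; edgeR adjusted p with the block 0.237). The alternative-pathway genes cyp7b1 and cyp27a7 had log2 fold changes of -0.01 (SE 0.15) and -0.11 (SE 0.13), and hsd3b7, an enzyme shared by both pathways, 0.29 (SE 0.11).

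Of the nuclear receptors in the list, nr0b2b (ENSDARG00000102756) is a copy of the small heterodimer partner gene, which in mammals represses bile acid synthesis. It had 15, 20 and 9 counts at 1 mg/L, against 2, 3 and 3 counts at 0.1 mg/L, and the libraries did not overlap. Only through the 1 and 4 mg/L libraries did nr0b2b have enough counts for the test. The ratio of summed counts per library size was 5.62 (exact 95% interval 2.62 to 13.8, counting error only) and the log2 fold change 2.43 (SE 0.46; edgeR adjusted p with the block 0.465). The other copy, nr0b2a, and the bile acid receptor gene nr1h4 had log2 fold changes of -0.09 (SE 0.26) and 0.13 (SE 0.19).

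Several transporter genes had higher values at 1 mg/L. The ileal bile acid importer gene slc10a2 averaged 14.9 ± 1.5 CPM at 1 mg/L and 10.1 ± 0.239 CPM at 0.1 mg/L (SD, n = 3 each; log2 fold change 0.55, SE 0.18). For slc51a, a subunit gene of the basolateral exporter, the levels were 27.9, 31.0 and 21.8 CPM at 1 mg/L, against 18, 18.2 and 18.5 CPM at 0.1 mg/L (log2 fold change 0.56, SE 0.15). Neither gene's groups overlapped, and with the block both had an edgeR adjusted p of 0.465. The bile salt export pump gene abcb11b was at 22.8, 38.4 and 9.95 CPM at 1 mg/L, against 10.1, 16.6 and 7.55 CPM at 0.1 mg/L, higher in every pair but with wide overlap (log2 fold change 1.06, SE 0.57). The exporter genes abcb11a, abcb4 and abcc2 had log2 fold changes of 0.82 (SE 0.39), 0.51 (SE 0.30) and 0.46 (SE 0.26). The value for fabp6, an ileal bile acid binding protein gene, was 0.43 (SE 0.35). In all of these the groups overlapped. By contrast abcc3, another exporter gene, and slc10a1, the hepatic importer gene, were at -0.01 (SE 0.16) and -0.09 (SE 0.24).

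**Figure D3:**
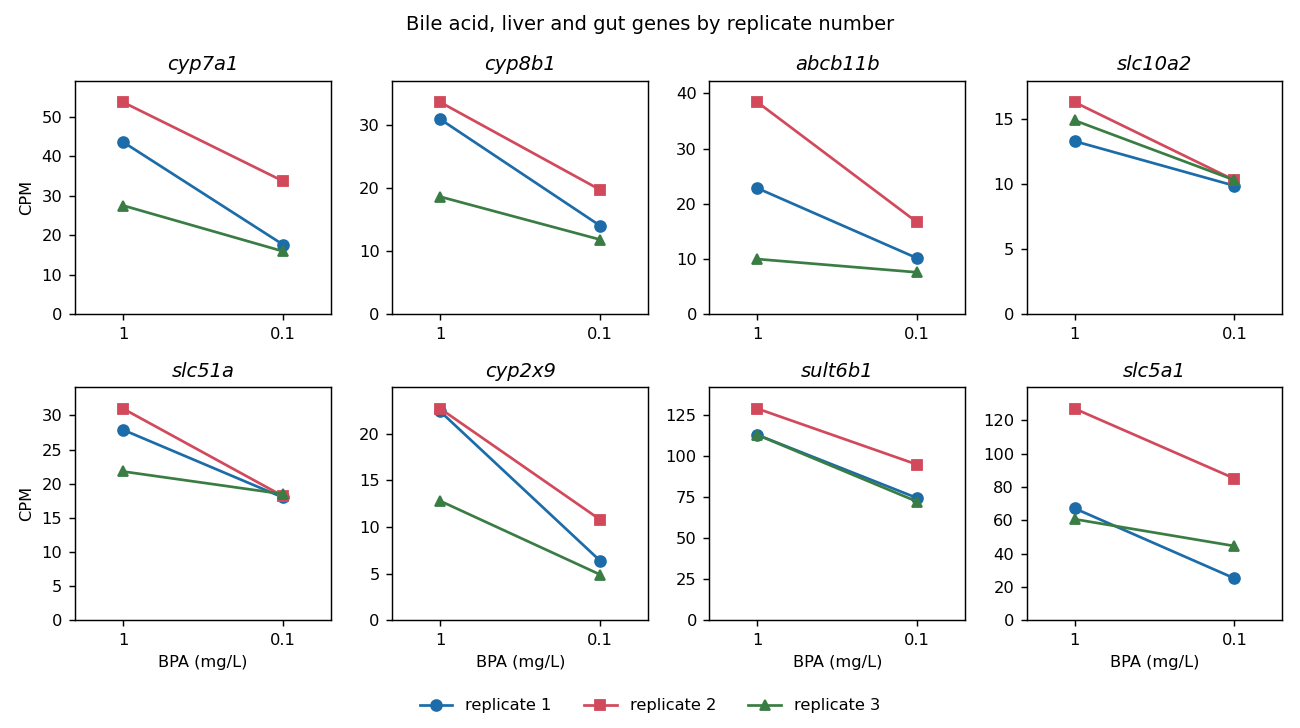
CPM of 8 genes of bile acid, drug and gut metabolism at 1 and 0.1 mg/L BPA, with a line joining libraries of the same replicate number. The panels are a selection of genes higher at 1 mg/L in every same-numbered pair, so every line falls from 1 to 0.1 mg/L. Over all tested genes 14.7% were higher in all 3 pairs. For cyp7a1 the 1 mg/L libraries were at 43.6, 53.7 and 27.5 CPM and the 0.1 mg/L libraries at 17.6, 33.7 and 15.9 CPM. None of these genes passed the edgeR test.

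Of the 44 tested genes of cytochrome P450 families 2 and 3, 0 passed the test, 35 had a log2 fold change above 0, and 22 were higher and 2 lower at 1 mg/L in all 3 pairs. The median was 0.26, and it was 0.11 without 0.1 mg/L replicate 1 and 0.41 without 0.1 mg/L replicate 2. The member with the smallest p, cyp2x9 (ENSDARG00000070775), was at 22.4, 22.7 and 12.8 CPM at 1 mg/L, against 6.39, 10.8 and 4.91 CPM at 0.1 mg/L. These groups did not overlap (log2 fold change 1.39, SE 0.42; edgeR adjusted p with the block 0.237), and the control and 4 mg/L groups averaged 7.18 and 13.8 CPM. Next by p with the block were cyp3c4, with no overlap, and cyp2k19, with overlap. Their log2 fold changes without the block were 0.55 (SE 0.17) and 0.50 (SE 0.24).

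For cyp1a, the main target gene of the aryl hydrocarbon receptor, levels were 19.8, 32.6 and 19.4 CPM at 1 mg/L, against 11.7, 25.8 and 16.4 CPM at 0.1 mg/L. The groups overlapped while all 3 pairs were higher at 1 mg/L (log2 fold change 0.41, SE 0.31; edgeR adjusted p with the block 0.621). Among conjugating enzymes, the sulfotransferase gene sult6b1 was at 113, 129 and 113 CPM at 1 mg/L, against 74.5, 94.9 and 72.3 CPM at 0.1 mg/L. Its groups did not overlap and its log2 fold change was 0.56 (SE 0.14; edgeR adjusted p with the block 0.357). The phase II conjugation list as a whole had a median of 0.09 over 59 tested genes, with 22 higher and 4 lower in all 3 pairs. Over all tested genes 14.7% were higher and 13.1% lower in all 3 pairs.

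The hepatocyte list, of which 63 genes were tested and 0 passed, had a median log2 fold change of 0.33. Of the 63, 53 lay above 0, and 38 were higher and 2 lower at 1 mg/L in all 3 pairs, with median differences of 0.41, 0.30 and 0.16 in pairs 1, 2 and 3. Without 1 mg/L replicate 2 the median was 0.20. The summed level of the list was 16800, 18400 and 19400 CPM at 1 mg/L, against 15300, 17500 and 18400 CPM at 0.1 mg/L, and these ranges overlapped. Named by the smallest p with the block, itih3a, a plasma protease inhibitor heavy chain gene, had a log2 fold change of 0.68 (SE 0.29), the carboxylesterase gene ces2 0.48 (SE 0.24), and serpinf2b, for the plasmin inhibitor, 0.65 (SE 0.24). Of these, serpinf2b did not overlap between groups, at 53.8, 71.7 and 38.7 CPM at 1 mg/L, against 38.6, 36.1 and 29.8 CPM at 0.1 mg/L. With the block, DESeq2 gave ces2 and serpinf2b adjusted p-values of 0.0168 and 0.0215. The plasma protein genes were not uniform, since apoa2 and rbp4 had log2 fold changes of -0.20 and -0.15.

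The enterocyte list resembled it, with a median of 0.32 over 39 tested genes, 34 of them above 0, and 22 higher and 1 lower in all 3 pairs. None passed, and the median was 0.16 without 1 mg/L replicate 2. Its summed level was 7220, 9120 and 7010 CPM at 1 mg/L, against 4890, 7950 and 7190 CPM at 0.1 mg/L. The glucose transporter gene slc5a1 was at 67.2, 127 and 60.7 CPM at 1 mg/L, against 25.2, 85.1 and 44.6 CPM at 0.1 mg/L, with replicate 2 highest in both groups (log2 fold change 0.72, SE 0.44; DESeq2 adjusted p with the block 0.00289). The gut claudin gene cldn15la had a log2 fold change of 0.44 (SE 0.19), and slc10a2, given above, is also a member.

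Endothelium and cartilage and bone were the other lists with a shifted median. In endothelium, 34 of 36 tested genes lay above 0, and 22 were higher and 0 lower in all 3 pairs. The median was 0.25, and it was 0.20 without 0.1 mg/L replicate 1. The summed level was 318, 377 and 340 CPM at 1 mg/L, against 262, 300 and 305 CPM at 0.1 mg/L, without overlap. For flt1, a vascular endothelial growth factor receptor gene, levels were 3.91, 5.72 and 4.65 CPM at 1 mg/L, against 2.68, 3.5 and 3.79 CPM at 0.1 mg/L, and these groups did not overlap (log2 fold change 0.52, SE 0.22). The receptor gene tie1 and si:dkey-208k22.3 had log2 fold changes of 0.38 (SE 0.19) and 0.51 (SE 0.21). None of these passed.

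In cartilage and bone, 36 of 38 tested genes lay above 0, with a median of 0.27 that was 0.13 without 1 mg/L replicate 2, and 0 passed. The fibrillar collagen gene col11a1b was at 109, 125 and 81.7 CPM at 1 mg/L, against 80.6, 82.0 and 69.6 CPM at 0.1 mg/L, overlapping through 1 mg/L replicate 3 (log2 fold change 0.45, SE 0.20). The hypertrophic cartilage collagen gene col10a1a had a log2 fold change of 0.36 (SE 0.23). Against the list, bglap, the osteocalcin gene, had 3, 0 and 0 counts at 1 mg/L, against 8, 8 and 11 counts at 0.1 mg/L. Only through control, 0.1 and 4 mg/L libraries did bglap have enough counts for the test. Its groups did not overlap, and the ratio of summed counts per library size was 0.114 (exact 95% interval 0.022 to 0.369, counting error only); the edgeR adjusted p with the block was 0.621, and the control and 4 mg/L groups averaged 0.26 and 0.289 CPM.

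**Figure D4:**
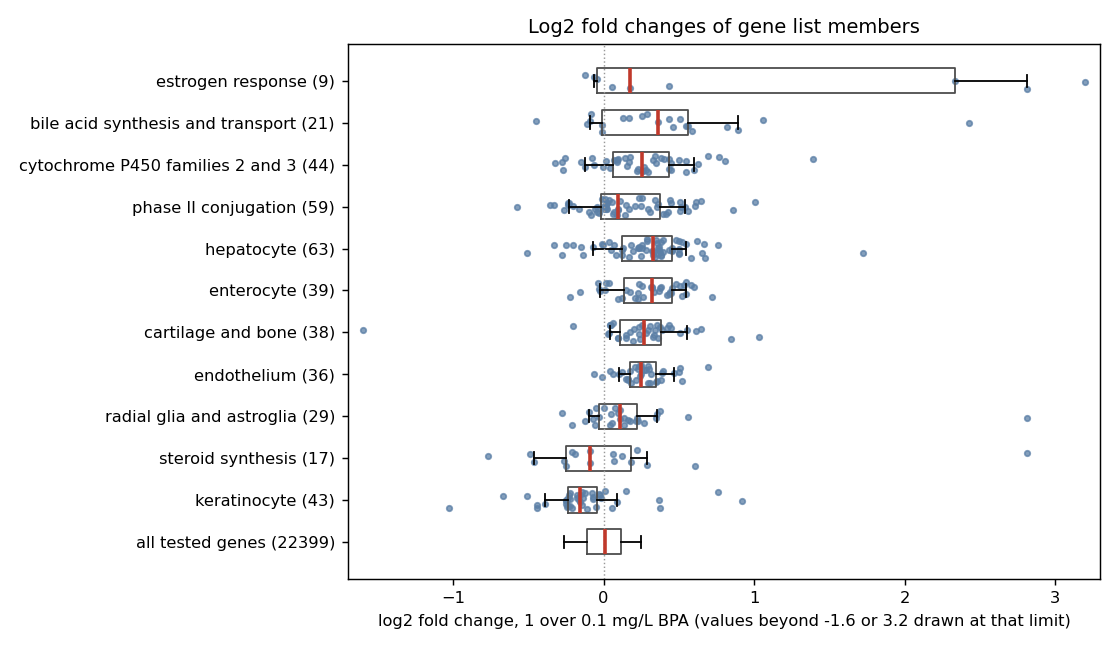
Log2 fold changes of 1 over 0.1 mg/L BPA for the tested members of 11 gene lists (points; number of tested genes in brackets) and for all tested genes. Boxes span the quartiles with the median in red and whiskers run from the 10th to the 90th percentile. The medians go from 0.36 in bile acid synthesis and transport to -0.16 in keratinocyte. Phase II conjugation and keratinocyte are shown in addition to the described lists, whose rule they did not meet.

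Keratinocyte genes had lower values at 1 mg/L in pairs 1 and 2 and higher ones in pair 3, and 0 passed. Of the 43 tested keratinocyte genes 8 lay above 0, and the median difference was -0.24 and -0.51 in pairs 1 and 2 and 0.18 in pair 3. Their summed level was 87300, 81400 and 104000 CPM at 1 mg/L, against 91900, 104000 and 97900 CPM at 0.1 mg/L. The median over both groups was -0.16, and it was 0.03 without 1 mg/L replicate 2. The part of these shares in the liver, gut, endothelium and skeletal values above was not tested.

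Of the genes lower at 1 mg/L, 0 passed in edgeR, and those with the smallest p are given by name. The sodium pump subunit gene atp1a1a.5 (ENSDARG00000040252) was at 13.4, 11.9 and 14.5 CPM at 1 mg/L, against 25.0, 21.4 and 18.2 CPM at 0.1 mg/L, without overlap (log2 fold change -0.70, SE 0.15; edgeR adjusted p with the block 0.465; DESeq2 adjusted p with the block 0.0215). The sorting nexin gene snx10a was at 3.23, 3.95 and 3.80 CPM at 1 mg/L, against 5.65, 5.57 and 6.02 CPM at 0.1 mg/L (log2 fold change -0.65, SE 0.15). Both genes had 4 mg/L means, 15.3 and 4.98 CPM, between those of 1 and 0.1 mg/L. Their control means, 20.1 and 4.72 CPM, also lay between those of 1 and 0.1 mg/L. The symbol CCBL2, a kynurenine aminotransferase gene, stands for a pair of identifiers with log2 fold changes of -0.76 (SE 0.22) and -1.09 (SE 0.33), whose reads may be shared, and glipr2 had -0.45 (SE 0.13).

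On the higher side, the smallest p-values beyond the genes above belonged to soat2, which esterifies cholesterol in gut and liver, and to the aquaporin gene aqp8b. The first was at 3.83, 6.46 and 5.2 CPM at 1 mg/L, against 2.34, 2.36 and 2.95 CPM at 0.1 mg/L (log2 fold change 1.02, SE 0.23). The second had 38, 74 and 11 counts at 1 mg/L, against 4, 4 and 7 counts at 0.1 mg/L, a ratio of 8.38 per library size (exact 95% interval 4.89 to 15.4, counting error only). Neither gene's groups overlapped, and for aqp8b replicate 2 held most of the 1 mg/L counts (DESeq2 adjusted p with the block 0.0337). Like nr0b2b, aqp8b had enough counts for the test only through the 1 and 4 mg/L libraries.

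The count of called genes depended on the tool once the replicate number was a block. Of the 22399 genes kept, DESeq2 with the block over the 9 exposed libraries called 40, 24 higher and 16 lower at 1 mg/L. With the same terms edgeR called 2. All 40 had an unadjusted edgeR p under 0.05 with the block, and 24 were higher and 15 lower in all 3 pairs. Of all tested genes 14.7% were higher and 13.1% lower in all 3 pairs. The 40 were picked by a fit with the same block to the same libraries, so these counts are no separate support. The 40 genes are given as that tool's calls, and those named were chosen after their values were seen.

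Among the 24 were cyp2x9 (DESeq2 adjusted p = 8.31e-09), cyp8b1 (2.59e-05), cyp7a1 (4.43e-05), sult6b1 (0.00102), abcb11b (0.0141) and lhb (0.0494). Also called higher were slc5a1 (0.00289), ces2 (0.0168), serpinf2b (0.0215) and aqp8b (0.0337). The chloride exchanger gene slc26a3.2 was at 34.9, 39.6 and 19.4 CPM at 1 mg/L, against 11.4, 22 and 11.2 CPM at 0.1 mg/L (DESeq2 adjusted p = 7.32e-07), and the diamine oxidase gene aoc1 at 61.2, 86.4 and 39.5 CPM at 1 mg/L, against 22.6, 52.4 and 29.0 CPM at 0.1 mg/L (DESeq2 adjusted p = 0.000821). In both, every pair was higher at 1 mg/L and the groups overlapped across numbers. Of genes active in liver, shbg, for the sex hormone binding globulin, and alas1, of heme synthesis, had DESeq2 log2 fold changes of 0.64 (SE 0.15) and 0.44 (SE 0.11).

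Of the 16 lower calls, the annexin gene anxa1c (ENSDARG00000104359) was at 78.9, 58.2 and 134 CPM at 1 mg/L, against 167, 162 and 222 CPM at 0.1 mg/L, without overlap (DESeq2 adjusted p = 8.22e-08; edgeR adjusted p with the block 0.385). The control and 4 mg/L groups averaged 168 and 66.3 CPM. The ictacalcin genes icn2 and icn and s100a11, all of the S100 calcium-binding family, were also called lower, as was atp1a1a.5. For icn2 the levels were 254, 170 and 370 CPM at 1 mg/L, against 371, 307 and 449 CPM at 0.1 mg/L, lower in each pair with overlap across numbers. One lower call, si:dkeyp-19h3.8, rests on 1.51 CPM in a lone 0.1 mg/L library, since it was at 0 in the other 5, and pairs 2 and 3 thus hold no counts of it.

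**Figure D5:**
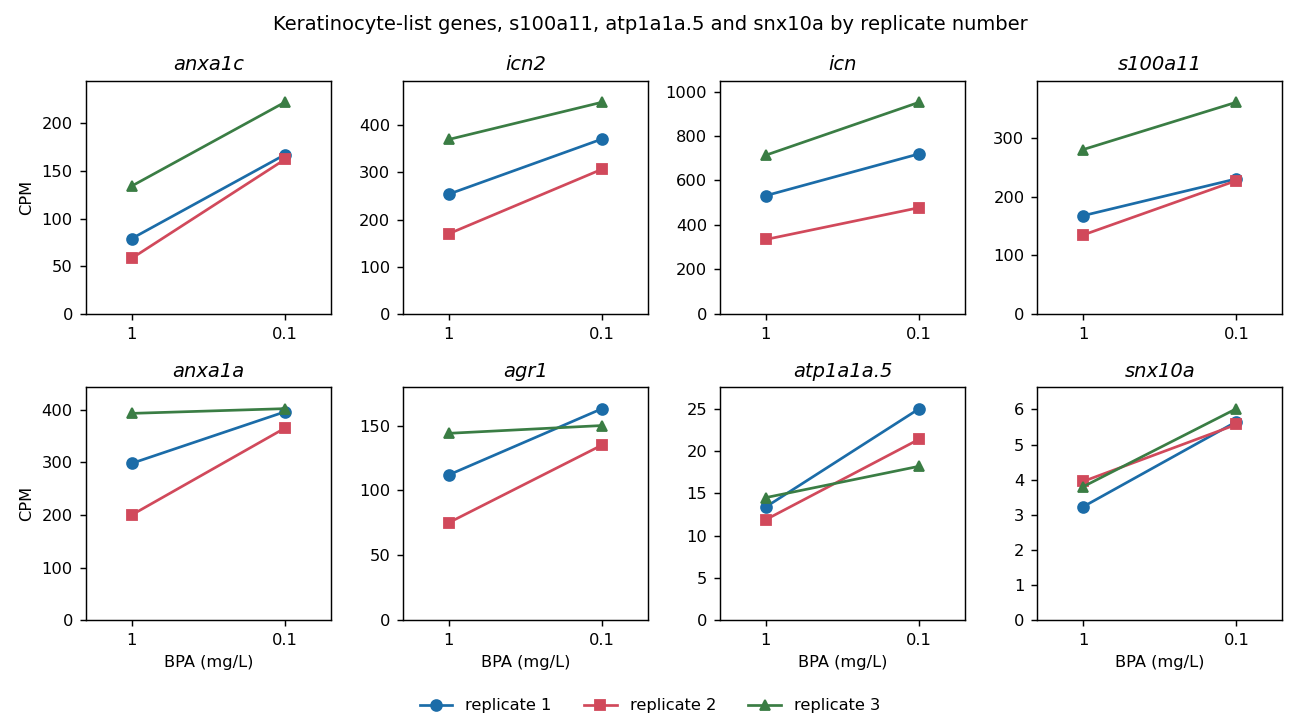
CPM of 8 genes that were lower at 1 than at 0.1 mg/L BPA in every same-numbered pair, with a line joining libraries of the same replicate number. The panels are a selection that includes members of the keratinocyte list. Of the 43 tested members of that list, 7 were lower and 3 higher at 1 mg/L in all 3 pairs. Over all tested genes these shares were 13.1% and 14.7%. In 1 mg/L replicate 3 anxa1c was at 134 CPM, against 222 CPM in 0.1 mg/L replicate 3; the lines of anxa1a and agr1 are nearly flat for that number. None of these genes passed the edgeR test.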

How the data were processed

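Counts per gene and library were deposited by the authors as whole numbers for 31540 genes, 1 file per library, and every value was whole. The submitters' processing notes name build GRCz10, the aligner STAR (2.5.1b), the quantifier RSEM (1.2.28), DESeq2 (1.10.1) and CASAVA. Their settings, and the treatment of reads shared between genes, are not given in the notes, so near-identical copies are uncertain. Per the labels' protocols, libraries were stranded and paired (76 bases), from 500 ng of total RNA with 15 PCR cycles. Gene symbols are those of the files.

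From these counts, genes were kept by filterByExpr (minimum count 10, minimum total 15; 22399 genes), scaled by TMM and fitted in edgeR 4.0.16 (R 4.3.3) by quasi-likelihood with group as the only term over all 12 libraries, and p-values were adjusted by Benjamini-Hochberg over the whole table. The standard error is the size of the log2 fold change divided by the square root of F. A fit with the replicate number as a block used the 9 exposed libraries. The numbers were taken to pair the libraries because every same-numbered correlation between 1 and 0.1 mg/L was over 0.1; the labels give no source for the pairing. Depth ran from 22.17 to 34.22 M counts per library compared. Intervals of count ratios are exact conditional binomial intervals at 95%, and reads carry no molecular identifiers.

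The comparison, the 58 gene lists and the naming rules were chosen with earlier results of these data known. Named genes are cyp19a1b, f13a1a.1, lhb, vtg1, esr1 and cyp1a, every gene past the threshold, the 3 members of a described list with the smallest p under the block, and per direction the 5 smallest p among genes with a symbol and at least 1 CPM in the higher group. A list was described if it had at least 5 tested members and a member past the threshold or a median at least 0.25 from 0; other members are given to complete a group. Alternatives were DESeq2 1.42.0, limma-voom (limma 3.58.1), other scalings, filters and sets of libraries, and each library left out. The edgeR and DESeq2 fits, each with and without the block, and limma-voom were also run on simulated counts. The other alternatives were not. The simulated block effect was drawn for each gene by itself, without shifts shared between genes. These runs are not used here to choose between the tools. No genome of the files' build was used, so no coordinates or sequences are given.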

Additional observations from a re-analysis of the deposited data

How the results depend on the processing

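The number of genes past the adjusted p of 0.05, 2 in the results above, was 2 with RLE scaling, with DESeq2 over all libraries, with no filter on low counts, and with the replicate block over the 9 exposed or all 12 libraries. It was 1 with upper-quartile scaling, with at least 1 CPM in 3 libraries, with only the 9 exposed libraries and with the replicate block over the 6 libraries compared. It was 0 with limma-voom (457 at an unadjusted p under 0.05, against 436 in edgeR) and with only the 6 libraries compared (410), and 40 with DESeq2 and the replicate block. Leaving out 1 library gave 0 to 2, and 0 without any 0.1 mg/L library. With the replicate block and without all libraries numbered 1, 2 or 3, the counts were 1, 0 and 7, the last with 5 higher and 2 lower. The cause of these moves was not tested. cyp19a1b kept its direction in 21 of 21 alternatives and passed in 14, with log2 fold changes of 2.67 to 2.97; f13a1a.1 passed in 9 of 21 (5.54 to 6.99). The log2 fold change of esr1, -0.12, turned to 0.18 and 0.27 with the replicate block without number 1 or 3, and was -0.75 without number 2. With 1 library left out it ran from -0.48 to 0.30. DESeq2 with the replicate block brought 9 other named genes past the threshold, and in edgeR over the 9 exposed libraries f13a1a.1 had an adjusted p of 0.0406 with the block and 0.364 without it. The median of all genes, 0.01, was 0.00414 with RLE scaling and -0.0123 with upper-quartile scaling, where 46.7% of values lay above 0, against 51.8%. At this depth vtg1, with 2 to 4 counts per library at 1 and 0.1 mg/L, has a ratio whose interval runs from 0.471 to 3.41.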

Other observations

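Some lists outside those described had medians of unlike sign in the 3 pairs. Photoreceptor genes had median differences of 0.13, 0.25 and -0.31 in pairs 1, 2 and 3, and ionocyte genes -0.09, -0.47 and 0.38. The median of the kidney genes was above 0 in each pair, at 0.17, 0.32 and 0.18, and 31 of 32 tested members lay above 0 (median log2 fold change 0.22), of which 17 were higher in all 3 pairs. For cytosolic ribosomal protein genes the median log2 fold change was -0.10 over 77 genes, of which 41 were lower at 1 mg/L in all 3 pairs and 0 higher. Over all tested genes 13.1% were lower and 14.7% higher in all 3 pairs. The ribosomal medians were -0.09, -0.22 and -0.02 in pairs 1, 2 and 3. Their summed levels overlapped, at 80900 to 131000 CPM at 1 mg/L against 93700 to 131000 CPM at 0.1 mg/L. No gene of these lists passed the edgeR test.

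The order of the 4 groups differed between genes. cyp7a1 averaged 14.9 CPM in the control, 22.4 at 0.1 mg/L, 41.6 at 1 mg/L and 17.2 at 4 mg/L, while cyp19a1b averaged 0.268, 0.352, 2.53 and 19.9 CPM at the same concentrations. slc5a1 averaged 34.2, 51.6, 84.8 and 38.1 CPM. The comparisons of 1 mg/L with the other concentrations share libraries, and the differences in order were not tested.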
